A study of Sus scrofa with 6 samples.

Results

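The 5 genes described here encode proteins of the cartilage matrix: the collagen genes *COL2A1* and *COL9A2*, the matrilin genes *MATN1* and *MATN3*, and *COMP*, the gene of cartilage oligomeric matrix protein. They were read by 1 Ensembl transcript each, ENSSSCT00000031054 for *COL2A1*, ENSSSCT00000029893 for *COL9A2*, ENSSSCT00000030042 for *MATN1*, ENSSSCT00000009414 for *MATN3* and ENSSSCT00000015202 for *COMP*, and they are 5 of 22204 transcripts with a read in any library. The 5 genes were chosen by their measured difference between genotypes, since they come from the study's list of differentially expressed genes in these same libraries. Every value for the genotypes below is therefore a description, and no call or p-value below is a test of these genes. Ear tissue came from 6 newborn Sutai piglets, a line that goes back to a cross of Duroc and Meishan pigs, with 1 RNA library per piglet. The 3 piglets labelled QQ (6185STQ, 6415 and 6434) carried the copy number variation at the end of the *MSRB3* gene on both chromosomes and are named CNV/CNV here. The 3 piglets labelled qq (6161ST, 6165ST and 6407) did not carry it and are named wild-type. Which piece of the ear was taken, how much cartilage it held, and the sex and litter of each animal are not stated. The names of 6161ST, 6165ST and 6185STQ hold the letters ST, whose meaning is not stated either.

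Cartilage of the external ear is made by chondrocytes, which lie apart from each other in a matrix that they secrete. Its fibrils are built from type II collagen, whose chain is encoded by *COL2A1*. Type IX collagen, of which *COL9A2* encodes a chain, sits on the surface of these fibrils. Matrilins are adaptor proteins that join fibrils to other matrix molecules. COMP, a glycoprotein of the thrombospondin family, binds collagens and matrilins and is also made in tendon and ligament. Mutations in human *COL9A2*, *MATN3* and *COMP* cause skeletal dysplasias, and those in *COL2A1* cause a range of chondrodysplasias. In the RefSeq annotation of Sscrofa11.1, *COMP* lies on chromosome 2, *MATN3* on chromosome 3, *COL2A1* on chromosome 5, and *MATN1* and *COL9A2* on chromosome 6, so that *MATN1* and *COL9A2* alone share a chromosome.

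Between 39.3 M and 44.2 M (megareads) of uniquely mapped reads per library were assigned to transcripts, and the 5 genes took from 0.000683% of them (276 reads in 6165ST) to 0.276% (120360 reads in 6415). The level is given as RPKM, the read count scaled by the length of the transcript and by the total of assigned reads, which allows genes of different length to be compared within a library. The wild-type libraries 6161ST and 6165ST stood apart from the other 4. All 5 genes were lowest in 6165ST and second lowest in 6161ST, while the third wild-type piglet, 6407, lay within the range of the CNV/CNV piglets for each gene. Of the 16645 transcripts that passed the expression filter, 7.17% had both of these piglets below the other 4. The genotype values below rest on these libraries, so the log2 differences are also given without them, and without both the wild-type group is 6407 alone, whose own levels and ratios are printed. In bulk tissue, fewer cartilage cells in the sample and less RNA per cell cannot be told apart.

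*COL2A1* had the highest RPKM of the 5 genes in every piglet but 6165ST. Its level was 24.4 RPKM in 6161ST, 0.483 RPKM in 6165ST and 351 RPKM in 6407 among the wild-type piglets. In the CNV/CNV piglets it was 221 RPKM in 6185STQ, 542 RPKM in 6415 and 156 RPKM in 6434. The genotypes overlapped, because 6407 exceeded 2 of the 3 CNV/CNV piglets. Even without 6165ST, the highest piglet had 22.2 times the RPKM of the lowest. The transcript is 4098 bases long, and 62.9% of it was covered by the 80 reads of 6165ST against 89.8% to 94.5% in the other libraries.

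*COL9A2* followed *COL2A1* closely in its order of piglets. It had 11.1 RPKM in 6161ST, 1.55 RPKM in 6165ST and 90.2 RPKM in 6407. In the CNV/CNV piglets the level was 68.1 RPKM in 6185STQ, 141 RPKM in 6415 and 68.6 RPKM in 6434. The last value and that of 6185STQ were nearly the same, and 6407 again lay above both. In 6165ST *COL9A2* had the most reads of the 5 genes, 181, which covered 82.9% of its 2883 bases.

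*MATN3*, which encodes a matrilin of growing skeletal cartilage, kept the same order of piglets as *COL2A1* at a far lower level. Its RPKM was 0.517 in 6161ST, 0.119 in 6165ST and 7.76 in 6407. Among the CNV/CNV piglets it was 4.62 RPKM in 6185STQ, 16.3 RPKM in 6415 and 3.17 RPKM in 6434. The 3 CNV/CNV piglets thus differed by 5.14-fold among themselves, more than for any other of the 5 genes, with 6407 inside their range. The 2 lowest values rest on 31 reads in 6161ST and 7 reads in 6165ST.

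*MATN1*, the gene of the matrilin known as cartilage matrix protein, had another order. Its level was 0.752 RPKM in 6161ST, 0.0995 RPKM in 6165ST and 6.03 RPKM in 6407. In the CNV/CNV piglets it was 4.73 RPKM in 6185STQ, 4.63 RPKM in 6415 and 7.91 RPKM in 6434. The highest piglet was 6434, and 6415, which was highest for both collagens and *MATN3*, had the lowest *MATN1* of its genotype. The reads of 6185STQ and 6415 (277 and 301) give exact 95% intervals for the RPKM that overlap, 4.19 to 5.32 and 4.12 to 5.18. The intervals for RPKM take each read as independent, although both mates of a paired-end fragment may have been counted.

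*COMP* was also highest in 6434. The level was 4.25 RPKM in 6161ST, 0.0201 RPKM in 6165ST and 26.1 RPKM in 6407. Among CNV/CNV piglets it was 19.2 RPKM in 6185STQ, 40.8 RPKM in 6415 and 52.1 RPKM in 6434. It was the only one of the 5 genes for which 6407 exceeded 1 CNV/CNV piglet rather than 2. In 6165ST *COMP* had 2 reads, which covered 7.12% of the transcript, with an exact 95% interval of 0.00244 to 0.0727 RPKM. The same transcript was covered to between 96.6% and 99.2% in the other 5 libraries.

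**Figure D1:**
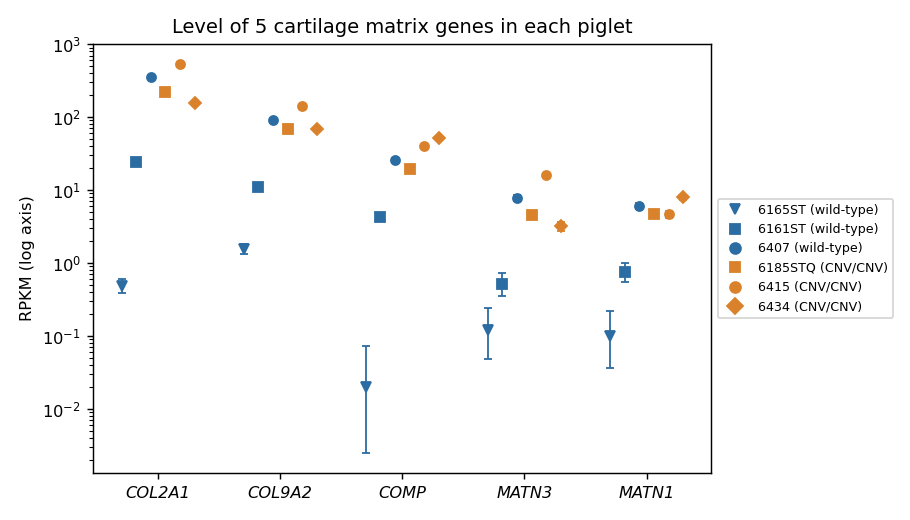
Level of the 5 genes by piglet, in RPKM (log axis). Blue points are wild-type and orange points CNV/CNV piglets. Bars are exact 95% Poisson intervals of the read counts, with each read taken as independent, and cover counting error only. For each gene 6165ST and 6161ST are lowest, and the wild-type piglet 6407 lies within the range of the CNV/CNV piglets (351 RPKM for COL2A1, against 156 to 542 RPKM).

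By genotype, the mean level of *COL2A1* over the 3 wild-type piglets was 125 ± 196 RPKM, and over the 3 CNV/CNV piglets it was 306 ± 207 RPKM (SD, n = 3 each here and in the next sentences). For *COL9A2* these were 34.3 ± 48.7 and 92.6 ± 42.0 RPKM, and for *COMP* 10.1 ± 14 and 37.4 ± 16.7 RPKM. *MATN3* had 2.80 ± 4.30 and 8.03 ± 7.20 RPKM, and *MATN1* had 2.29 ± 3.25 and 5.75 ± 1.87 RPKM. In each wild-type group the SD was larger than the mean. The log2 fold change of CNV/CNV over wild-type, fitted by edgeR on the counts of all 16645 transcripts, was 1.35 (standard error 1.54) for *COL2A1*, 1.5 (1.13) for *COL9A2*, 1.40 (1.04) for *MATN1*, 1.58 (1.23) for *MATN3* and 1.96 (1.33) for *COMP*. All 5 were above 0, with a median of 1.5 against -0.001 over all transcripts tested, as their choice fixes. At an adjusted p of 0.05, 0 of the 5 were called, where 0.00601% of all transcripts tested were. The CNV/CNV piglets lay above the wild-type piglets without overlap for 0 of the 5 and for 2.11% of all transcripts tested. All 5 passed the expression filter, which asks for reads in 3 libraries and so did not depend on the 2, 6 and 7 reads of *COMP*, *MATN1* and *MATN3* in 6165ST.

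The fitted fold changes turned on single piglets. Without 6407 they rose to 4.78 for *COL2A1*, 4.03 for *COL9A2*, 3.91 for *MATN1*, 4.80 for *MATN3* and 4.29 for *COMP*. Without 6165ST they were 0.77, 0.94, 0.83, 1.02 and 1.37 in the same order. Log2 CPM is the read count scaled to the library total after TMM normalization, in log2, with a prior count of 2. This prior count draws in the lowest counts of 6165ST. Against 6407 alone, with both low wild-type piglets left out, the mean log2 CPM of the CNV/CNV piglets differed by -0.35 for *COL2A1*, 0.01 for *COL9A2*, -0.06 for *MATN1*, -0.26 for *MATN3* and 0.46 for *COMP*. Between piglets with ST in the name, CNV/CNV minus wild-type was 6.14, 4.18, 4.03, 4.15 and 5.68 on the log2 scale in that order. Between the other 3 piglets it was -0.21, 0.18, 0.06, -0.05 and 0.88. Of these values, the large ones had 6161ST and 6165ST on the wild-type side, and *COMP* had the highest value without them.

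The scale of averaging also mattered, because the fit of edgeR compares mean counts, in which 6407 dominates the wild-type group. As a difference of mean log2 CPM, which weighs each piglet alike, CNV/CNV minus wild-type was 4.16 for *COL2A1*, 3.03 for *COL9A2*, 2.83 for *MATN1*, 2.97 for *MATN3* and 4.50 for *COMP*. The SD of log2 CPM over the 6 piglets was 3.96 for *COMP* and 3.84 for *COL2A1*, and 2 and 3 of the 16645 transcripts had a larger one. For *MATN3*, *COL9A2* and *MATN1* the SD was 2.59, 2.54 and 2.37, exceeded by 34, 38 and 44 transcripts. These ranks are not independent of the choice of the genes, which was made on these same libraries. In 6165ST *COL2A1* and *COMP* deviated by -7.14 and -7.63 from their own means over the piglets.

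The proportions of the 5 genes to each other were then compared from piglet to piglet as ratios of RPKM, with exact binomial 95% intervals that cover counting error only. These intervals take each read as independent, and are too narrow where both mates of a paired-end fragment were counted. With 1 library per piglet, the spread from repeating a library is not known. *COL9A2* stood at 25.7% of the RPKM of *COL2A1* in 6407 (25.2% to 26.2%), 26.0% in 6415 (25.6% to 26.5%) and 30.9% in 6185STQ (30.1% to 31.6%). It was higher in 6434, with 44.0% (42.9% to 45.1%), and in 6161ST, with 45.4% (42.6% to 48.3%). In 6165ST the order of the collagens turned, with *COL9A2* at 3.22 times *COL2A1* (2.46 to 4.24). The ratio therefore did not follow genotype, since each genotype had a piglet near the lowest ratio (6407 and 6415) and one near 45.4% (6161ST and 6434).

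With 6165ST left out, the ratio to *COL2A1* varied least for *MATN3*, whereas over all 6 piglets it varied least for *COMP* (8.02-fold, against 12.1-fold for *MATN3*). *MATN3* was 2.12% of *COL2A1* in 6161ST, 2.21% in 6407, 2.09% in 6185STQ, 3.01% in 6415 and 2.03% in 6434. These 5 ratios lay within 1.48-fold, while *COL2A1* itself ranged over 22.2-fold in the same piglets. The interval of 6415 (2.83% to 3.20%) lay above those of 6407, 6185STQ and 6434, which overlapped one another, while the wide one of 6161ST (1.44% to 3.01%) overlapped all 4. In 6165ST the ratio was 24.5%, with an interval of 9.56% to 52.9% that rests on 7 and 80 reads.

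*COMP* and *MATN1* departed from the collagens in 6434. *COMP* was 33.4% of *COL2A1* there (32.5% to 34.4%), against 7.44% in 6407, 8.69% in 6185STQ, 7.54% in 6415 and 17.4% in 6161ST (15.7% to 19.3%). The interval of 6434 lay above those of all other piglets. In 6165ST the ratio was 4.17%, with an interval from 0.496% to 15.6% that spans the values of 6407, 6185STQ and 6415. *MATN1* was 5.08% of *COL2A1* in 6434 (4.64% to 5.54%), 0.854% in 6415 (0.760% to 0.956%), 1.72% in 6407, 2.14% in 6185STQ and 3.08% in 6161ST. Among these 5 piglets the ratio ranged over 5.94-fold, and both ends were CNV/CNV piglets. In 6165ST it was 20.6% (7.35% to 46.9%, from 6 and 80 reads). Over all 6 piglets the range was therefore 24.1-fold with a wild-type piglet at the top. So few reads, of which some may be mates of 1 fragment, do not secure a separation of 6165ST from 6434.

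The ratio between the matrilin genes differed most between 6434 and 6415. *MATN1* had 2.5 times the RPKM of *MATN3* in 6434 (2.11 to 2.96) and 0.284 times in 6415 (0.249 to 0.323), an 8.80-fold range within CNV/CNV piglets. In 6407 the ratio was 0.776 (0.679 to 0.888) and in 6185STQ 1.02 (0.862 to 1.22), an interval that includes 1, as that of 6407 does not. Of the wild-type piglets, 6161ST had 1.45 (0.902 to 2.37) and 6165ST 0.840 (0.233 to 2.92), and both of these wide intervals include 1. As mean log2 ratios, *MATN1* to *MATN3* was -0.03 ± 0.49 (SD, n = 3) in wild-type and -0.15 ± 1.58 (SD, n = 3) in CNV/CNV piglets.

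*COMP* against *COL9A2* showed the same outlying piglet. The ratio was 0.290 in 6407, 0.282 in 6185STQ and 0.289 in 6415, with intervals that overlapped (0.278 to 0.302, 0.268 to 0.296 and 0.280 to 0.299). It was 0.384 in 6161ST (0.344 to 0.429) and 0.760 in 6434 (0.735 to 0.787). In 6165ST it was 0.0130, with an upper bound of 0.0475 that lies below all other piglets. The genotypes overlapped in all 10 ratios between members. The mean log2 ratio to *COL2A1* was -0.47 ± 1.91 in wild-type and -1.61 ± 0.39 in CNV/CNV piglets for *COL9A2*, and -3.62 ± 1.04 and -2.94 ± 1.19 for *COMP* (SD, n = 3 each). Without 6165ST the wild-type mean became -1.55 for *COL9A2*, next to the CNV/CNV value, and -3.13 for *COMP*.

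**Figure D2:**
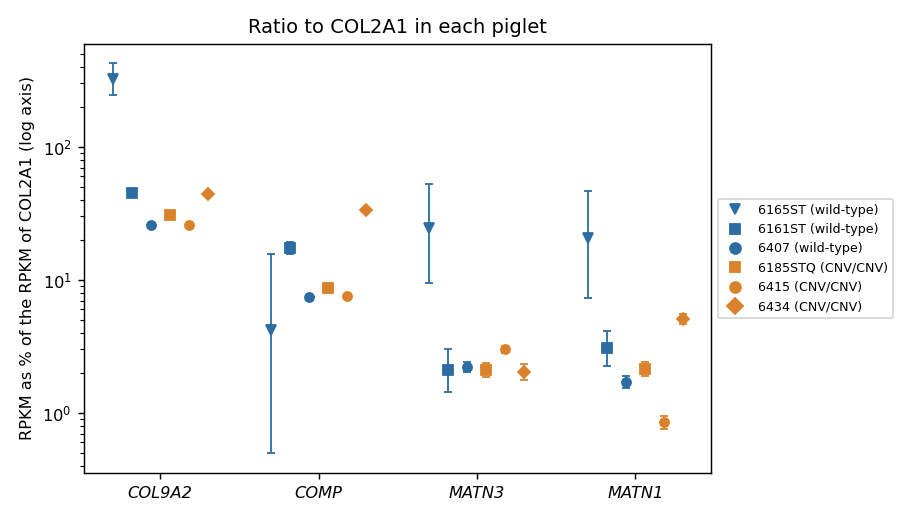
RPKM of COL9A2, COMP, MATN3 and MATN1 as a percent of the RPKM of COL2A1 (log axis), by piglet. Blue marks wild-type and orange CNV/CNV piglets. Bars are exact binomial 95% intervals for counting error, with each read taken as independent. MATN3 lies between 2.03% and 3.01% in all piglets but 6165ST, and COMP is highest in 6434 at 33.4%.

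Of the summed RPKM of the 5 genes, 481 in 6407, 317 in 6185STQ and 745 in 6415, *COL2A1* made up 73.0%, 69.5% and 72.8%. In 6434 the sum was 288 RPKM, of which *COL2A1* made up 54.2% and *COMP* 18.1%. The sum was 41.0 RPKM in 6161ST, with 59.5% from *COL2A1*. It was 2.27 RPKM in 6165ST, where *COL9A2* made up 68.3% and *COL2A1* 21.2%. The share of *COL2A1* was thus close in 6407, 6185STQ and 6415, although the genotype of 6407 differs from that of the other 2.

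Over the 6 piglets the 5 genes rose and fell together on a log scale. For the 10 pairs of genes, Pearson's r of log2 CPM (prior count 2) was from 0.895 for *MATN3* and *COMP* to 0.991 for *COL2A1* and *COL9A2*. These are descriptions over 6 libraries that share the same depth range, and the genes were picked for a common direction, so no p is given. Spearman's rho of RPKM was 1 for *COL2A1* and *MATN3*, 0.943 for *COL9A2* with either of these, and 0.486 for *MATN1* with *COL2A1* or *MATN3*. Without 6161ST and 6165ST, the 2 piglets farthest from the median of the 5-gene mean, r over the other 4 stayed at 0.933 for *COL2A1* and *COL9A2*, 0.994 for *COL2A1* and *MATN3* and 0.963 for *COL9A2* and *MATN3*. It became -0.699 for *COL2A1* and *MATN1*, -0.069 for *COL2A1* and *COMP* and -0.684 for *MATN1* and *MATN3*, and it was 0.599 for *MATN1* and *COMP*. The relation of *MATN1* and *COMP* to *COL2A1* thus rests on the 2 low wild-type piglets.

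**Figure D3:**
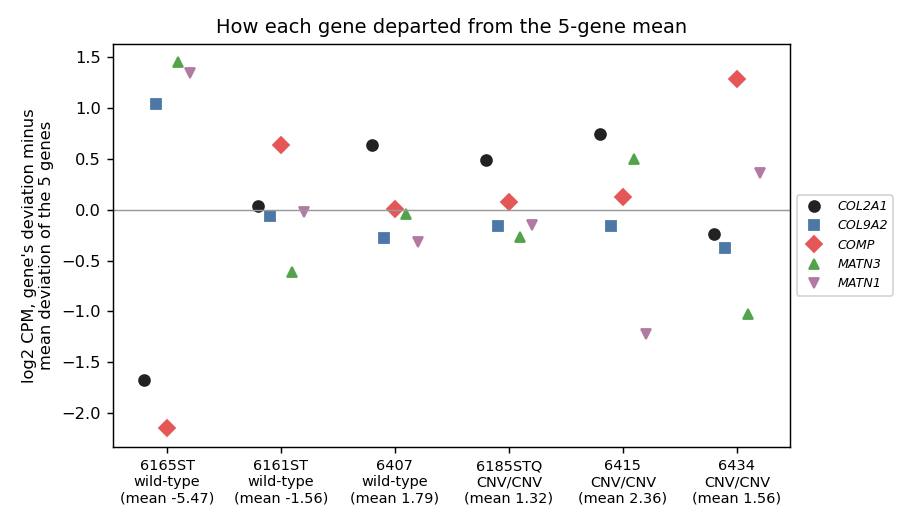
Deviation of each gene from its own mean over the piglets, minus the mean deviation of the 5 genes in that piglet, in log2 CPM with prior count 2, which draws in the lowest counts of 6165ST. The number under each piglet is the 5-gene mean deviation. COMP stands 1.29 above that mean in 6434, MATN1 1.22 below it in 6415, and COL2A1 and COMP 1.67 and 2.15 below it in 6165ST.

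A list of 8 further cartilage genes held proteoglycans, link proteins and chondrocyte factors. By edgeR 0 of the 8 were called in either direction, where 0.00601% of all transcripts tested were. This count therefore says nothing particular about them. *CYTL1*, a cytokine-like gene of chondrocytes, *CHAD*, the gene of the collagen-binding chondroadherin, and *C1QTNF3*, a gene of a secreted cartilage protein, had the highest mean RPKM of the 8. *CYTL1* had 8.84, 0.243 and 71.2 RPKM in 6161ST, 6165ST and 6407, and 58.7, 94.0 and 217 RPKM in 6185STQ, 6415 and 6434. *CHAD* had 10.8, 4.99 and 55.0 RPKM in the wild-type and 48.8, 73.9 and 113 RPKM in the CNV/CNV piglets in the same order. *C1QTNF3* had 10.7, 7.26 and 47.7 RPKM and then 29.0, 64.9 and 49.7 RPKM. All 8 were lowest in 6165ST and second lowest in 6161ST. Over all transcripts tested, 7.17% had both of these piglets below the other 4. Of the 8, 5 were highest in 6415 and 3, *CYTL1*, *CHAD* and *CILP2*, in 6434, where *COMP* and *MATN1* also were. The median log2 fold change of the 8 was 1.44, but they come from the same list of the study and add no independent evidence of a direction.

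Likeness to the 5-gene mean was measured over the 6 piglets by Pearson's r of log2 CPM among all transcripts tested. Among the 236 that could be named and were not members, the highest were *HAPLN1* (r = 0.995), a link protein gene that anchors aggrecan to hyaluronan, *CILP2* (0.994), a gene of a cartilage intermediate layer protein, and *EXTL1* (0.991), a gene of a glycosyltransferase family that acts on heparan sulfate. They were followed by *ACAN* (0.989), the gene of aggrecan, the main proteoglycan of cartilage, and *COL8A1* (0.989), a gene of a short-chain collagen. *HAPLN1* had 6.50, 1.32 and 31.5 RPKM in 6161ST, 6165ST and 6407 and 23.7, 50.8 and 24.6 RPKM in 6185STQ, 6415 and 6434. *EXTL1* was low throughout, from 0.177 RPKM in 6165ST to 3.87 RPKM in 6415. The members themselves had r from 0.962 (*MATN3*) to 0.997 (*COL9A2*) to the mean that they form. Of the 16640 other transcripts, 45 (0.270%) reached at least 0.962, and 7 of these 45 had a name. Without 6165ST the lowest member had r = 0.924 (*MATN1*), and 568 other transcripts reached at least that. By Spearman's rho over the 6 piglets the lowest member had 0.6 (*MATN1*), which 3558 reached. With names for so few transcripts, other cartilage genes may be among those without one. The names come from the study's list for this same genotype comparison, so the likeness of the named genes is not independent of that choice.

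Lists for other cell types of the ear were drawn from the same named genes of the study, which were chosen for a genotype difference, so their split by piglet is not independent of that choice. The summed RPKM of 13 hair shaft transcripts, led by hair keratin genes, was 2542 in 6161ST, 5155 in 6165ST and 1376 in 6407, and from 941 to 1479 in the CNV/CNV piglets. It was highest in the piglet with the least cartilage message, although 2 of the 13, *KRT83* and *KRT84*, were highest in 6185STQ. The sum of 8 pigment cell genes was 245 in 6161ST, 294 in 6165ST and 160.0 in 6407, and from 88.2 to 159.8 in the CNV/CNV piglets. The sum of 3 sebaceous lipid genes was 92.3, 87.1 and 29.7 in the wild-type piglets and from 18.8 to 29.4 in the others. In contrast, 9 dermal matrix transcripts, *COL1A1* among them, summed to 1111 in 6161ST, 1299 in 6165ST and 6162 in 6407, and to 1842 in 6185STQ, 9737 in 6415 and 7248 in 6434. Most of this sum was *COL1A1*, with 866 RPKM in 6161ST, 1042 RPKM in 6165ST and 8405 RPKM in 6415. The 9 include several transcripts of *TNXB*, and *COL8A1*, named above for its likeness to the 5-gene mean. The muscle myosin gene *MYH7* was at 2.27 RPKM in 6165ST and at 0.544 to 1.08 RPKM in the others, and the erythroid gene *ALAS2* was at or below 1.15 RPKM in all. *HBB*, the other red blood cell marker chosen, was listed in no library, and 13 of 14 chosen hair shaft transcripts were listed. None of the transcripts tested from these lists was called by edgeR, where 0.00601% of all transcripts tested were, and none was at 0 in any library. The part of the tissue make-up in the values of the 5 genes was not tested. Cartilage, hair and pigment cell genes were thus read in all 6 libraries labelled as ear tissue. In 6165ST the other cartilage genes summed to 17.9 RPKM, against 49.8 RPKM in 6161ST and at least 222 RPKM in the other piglets.

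**Figure D4:**
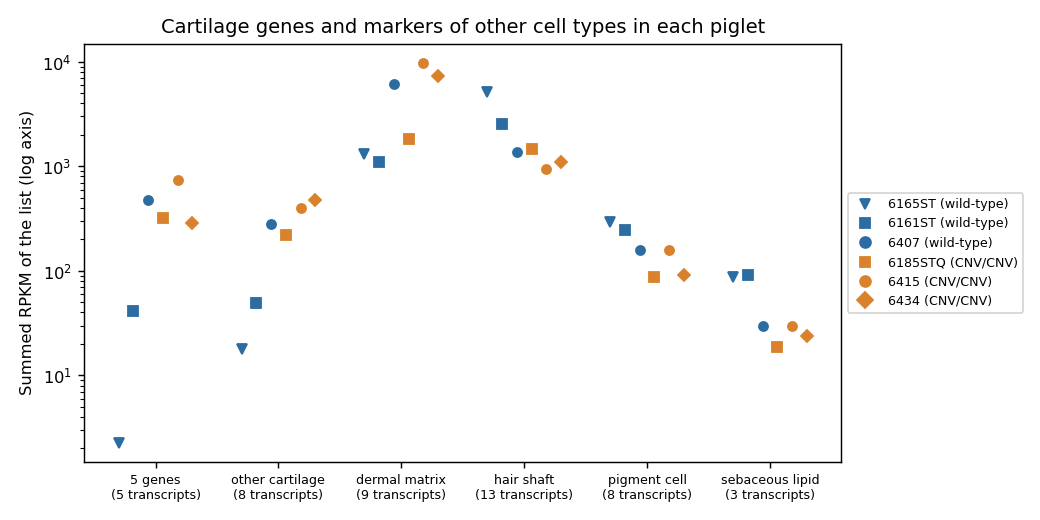
Summed RPKM of the 5 genes and of lists for other cartilage genes and other cell types by piglet (log axis). Blue marks wild-type and orange CNV/CNV piglets. The 5 genes sum to 2.27 RPKM in 6165ST, where the hair shaft transcripts are highest, and to 481 RPKM in 6407.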

How the data were processed

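Polyadenylated RNA of 6 ear samples was sequenced by the authors in paired-end mode on an Illumina HiSeq. The deposited counts are uniquely mapped reads per Ensembl transcript, and the authors scaled them to RPKM by transcript length and library total, which was recomputed for 100% of values within a relative tolerance of 0.001. The deposited coverage column, a percent, was read as the share of the transcript covered by reads. A transcript that was not listed was set to 0. TopHat, Bowtie2 and Cuffdiff are named in the processing notes of the submitters, which give the build as Sscrofa10.2, whereas the article names Sscrofa 11.1, so the build is open and no positions are printed. Neither the strand of the libraries nor the program that counted reads is stated. The authors' list of differentially expressed genes set the members and the names, and none of its fold changes or p-values was used.

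Names came from the identifiers that the study's gene list pairs with symbols, 264 of 280 of which were in the tables. The members and lists were chosen with earlier results of these data known. Named genes were the 5 members, the 3 other cartilage genes with the highest mean RPKM and the 5 named transcripts most like the members' mean. Genotypes were compared on counts with edgeR 4.0.16 in R 4.3.3 (filterByExpr, TMM, glmQLFit, glmQLFTest, Benjamini-Hochberg over 16645 transcripts). The standard error was derived from the F value. The common biological coefficient of variation, 1 value for all transcripts, was 0.263 in the main fit. Alternatives were DESeq2 1.42.0, voom in limma 3.58.1, upper quartile scaling, other filters, a term for the letters ST and leaving out each piglet. The fits were also run on simulated counts with the same coefficient of variation for all transcripts. That run says nothing about genes as variable as these 5. The p-values behind the calls set the difference between genotypes against the spread between piglets of a genotype, 3 and 3 in the main fit.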

Additional observations from a re-analysis of the deposited data

How the results depend on the processing

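The number of transcripts past an adjusted p of 0.05 was 1 in edgeR, 29 in DESeq2, 3 without a filter, 0 at a mean of at least 5 RPKM, 0 in limma voom and 2 with a term for the letters ST, and from 0 to 6 when 1 piglet was left out. At an unadjusted p under 0.05 it was 890 in edgeR, 424 at a mean of at least 5 RPKM and 912 in limma voom, and 406 without 6161ST, 537 without 6165ST, 1028 without 6185STQ and 1197 without 6415, the fits with 0 calls. It was 2021 without 6407. None of the 5 genes was called at the adjusted threshold in any of these fits. Under an unadjusted p of 0.05 were 4 of the 5 in limma voom, beside 912 of the 16645 transcripts tested. Without 6407 all 5 were, beside 2021 of 16963, and in the other fits 0 were. These counts are no test and no independent evidence, since the genes were chosen on this comparison. DESeq2 gave no adjusted p for *COL9A2* and *MATN1*, and *MATN1* was below the limit of 5 RPKM. The fitted log2 fold changes kept their sign, but the differences of mean log2 CPM turned negative between the piglets without ST in the name for *COL2A1* (-0.21) and *MATN3* (-0.05), and against 6407 alone for *COL2A1* (-0.35), *MATN3* (-0.26) and *MATN1* (-0.06). In the fits, leave-one-out values ran from 0.54 without 6415 to 4.80 without 6407 for *MATN3*, from 0.65 to 4.78 for *COL2A1*, from 0.94 to 4.03 for *COL9A2*, from 0.83 to 3.91 for *MATN1* and from 1.37 to 4.29 for *COMP*. The comparison with 6407 alone was added after the data were seen.

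The median correlation of the 10 pairs was 0.968, against 0.724 for linear RPKM and 0.145 without 6161ST and 6165ST. The 45 transcripts as like the 5-gene mean as its least like member became 568 without 6165ST, where that member was at 0.924. By Spearman's rho they became 3558, where that member was at 0.6 and 6 ranks give many ties. Without 6165ST the wild-type mean log2 ratio to *COL2A1* went from -0.47 to -1.55 for *COL9A2*, from -4.36 to -5.53 for *MATN3*, from -4.39 to -5.44 for *MATN1* and from -3.62 to -3.13 for *COMP*. Counting error limits the ratios of 6165ST, where *COMP* had 2 reads.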
